A study of Mus musculus with 12 samples.

Results

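The loss of clarin-1 in organs of Corti that already lacked clarin-2 was examined by setting the Clrn1-/-Clrn2-/- libraries against the Clrn2-/- libraries. Members were chosen by genotype alone, and comprised 6 of the 12 libraries of the series, 3 of each of these 2 genotypes. RNA came from the organ of Corti of mice at postnatal day 21, freed of the stria vascularis and of the modiolus, the bony core that houses the auditory neurons. The 6 remaining libraries came from Wild-type and Clrn1-/- mice, 3 of each. Both genotypes compared here carried the clarinet allele of Clrn2, an early stop codon present in every cell of the animal. The double knockout, obtained by crossing the 2 lines, also lacked exon 4 of Clrn1 in every cell, since the Cre that removed it was driven by the ubiquitously active PGK promoter. Whether a library came from 1 mouse or from a pool, and whether the 2 genotypes were littermates, is not stated, so p-values measure the spread between these libraries.

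Clarin-1 and clarin-2 are related small proteins of the plasma membrane, with several membrane-spanning segments. Both are made by the sensory hair cells, which convert sound into electrical signals through channels in the hair bundle and pass them to the auditory neurons at ribbon synapses. Mutations of CLRN1 cause a form of Usher syndrome, in which hearing loss is combined with loss of vision, and loss of clarin-2 leads to progressive hearing loss with regression of the shorter stereocilia. The hair cells are held in a mosaic by supporting cells, epithelial cells that are joined to them by tight junctions, contain keratins and microtubules, and maintain the potassium balance of the organ.

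The reverse-strand counts per gene came to between 30008679 and 38742142 per library of the 6 compared, and levels are given as CPM, a gene's counts relative to its library's total (at a depth of 30008679 counts, the shallowest here, 30 counts make about 1 CPM), after trimmed-mean (TMM) scaling, in the order of replicates 1, 2 and 3. Each genotype formed a cluster of its own on the first 2 principal components, which held 30.6% and 22.8% of the variance of all 12 libraries, and no 2 replicates agreed within counting noise. The reads of Clrn1 (chr3:58844028-58885340, minus strand, GRCm38) checked the labels: they stood at 31.5, 25.8 and 29.1 CPM in the Clrn2-/- libraries and 1.77, 2.44 and 2.71 CPM in the double knockout (log2 fold change -3.63 ± 0.12 (SE), edgeR adjusted p = 5.5e-11). The deletion leaves the other exons in place, and 54, 82 and 105 counts remained. Clrn2, whose stop codon lies in both genotypes, was low in both, at 1.26, 1.38 and 1.04 CPM in the Clrn2-/- libraries and 1.18, 0.921 and 1.13 CPM in the double knockout (log2 fold change -0.18 ± 0.23 (SE), edgeR adjusted p = 0.613). One library stood apart for a few genes: in the first double knockout library Ttr, the transthyretin gene that is very active in the choroid plexus, reached 133 CPM, against 8.83 and 8.64 CPM in the 2 others. Values that rest on this library are given with and without it. Signs of RNA composition also moved with genotype: of 8 nuclear and ribosomal RNA genes listed after the values were seen, 4 were over-expressed by the criterion given next, with Lars2, whose reads can include ribosomal RNA, at 149.9, 131 and 154 CPM in the Clrn2-/- libraries and 279.6, 302 and 451 CPM in the double knockout (log2 fold change 1.25) and the nuclear RNA Malat1 at 726, 925 and 867 CPM in the Clrn2-/- libraries and 1175, 1391 and 1446 CPM in the double knockout (0.67). Mir6236 (2.09) and Rn7sk (1.40) were the other increases. The rest of the list was not called, with Kcnq1ot1 at 0.505, Neat1 at -0.004, Meg3 at -0.353 and Snhg11 at -0.387. The part of RNA composition in the results below was not tested.

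More genes were higher than lower in the double knockout. Of 19052 genes tested, 699 were over-expressed and 273 under-expressed in the double knockout by 1.5-fold or more with an adjusted p no higher than 0.05 (edgeR quasi-likelihood test, Benjamini-Hochberg adjustment), which is 3.67% and 1.43% of the genes tested and 5.10% together. Genes past both limits are called genes in what follows. Counts of called members in the lists below are to be read against the shares of 3.67% and 1.43%. On the adjusted p alone, without a minimum fold, 2743 genes (14.4%) were higher and 2515 (13.2%) lower, so that the preponderance of increases was seen mainly among the larger changes. Most changes were moderate: the median fold of the called genes was 1.86 for the increases and 1.88 for the decreases, and 281 and 116 of them reached 2-fold. More of the over-expressed genes were abundant, 72 of them averaging at least 100 CPM against 6 of the under-expressed. Protein-coding genes made up 508 of the increases and 154 of the decreases. The 3 libraries of one genotype lay wholly above those of the other for 680 of the 699 and 262 of the 273, where 21.6% and 20.8% of all genes tested were separated in that way. When each of the 6 libraries was left out in turn, 396 of the increases and 121 of the decreases kept their call in every fit, and a call that did not is marked where the gene is named.

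**Figure D1:**
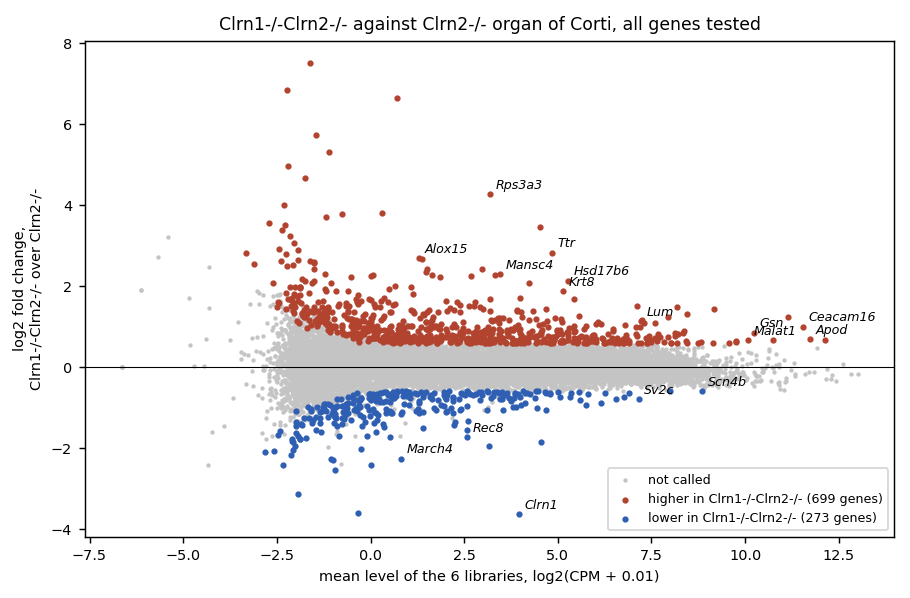
Level and change of the 19052 genes tested. The x axis is the mean level of the 6 libraries on a log2(CPM + 0.01) scale, the y axis the fitted log2 fold change of the double knockout over Clrn2-/-; each point is 1 gene, red for the 699 called higher, blue for the 273 called lower, grey for the rest. Red points extend further to the right than blue ones, and Clrn1 lies at -3.63.

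The 10 largest increases among named genes with separated libraries included enzymes of lipid oxidation and of the matrix, a protease and a claudin. Alox15, a lipoxygenase that oxidises polyunsaturated fatty acids, stood at 0.645, 0.704 and 0.618 CPM in the Clrn2-/- libraries and 4.03, 4.43 and 4.25 CPM in the double knockout (log2 fold change 2.69 ± 0.26 (SE), edgeR adjusted p = 3.25e-06). Prss22, which encodes a secreted serine protease of epithelia, stood at 0.888, 1.01 and 0.787 CPM in the Clrn2-/- libraries and 4.26, 4.73 and 5.39 CPM in the double knockout (log2 fold change 2.42 ± 0.18 (SE), edgeR adjusted p = 2.98e-07). The mitochondrial carrier gene Slc25a48 was at 0.78, 0.765 and 0.59 CPM in the Clrn2-/- libraries and 3.11, 4.25 and 6.11 CPM in the double knockout (log2 fold change 2.67 ± 0.27 (SE), edgeR adjusted p = 3.84e-06). In all of these the lowest double knockout library was several times the highest Clrn2-/- library. Loxl4, a lysyl oxidase that cross-links collagen, was at 3.52, 2.79 and 3.79 CPM in the Clrn2-/- libraries and 13.6, 18.6 and 17.1 CPM in the double knockout (log2 fold change 2.29 ± 0.16 (SE), edgeR adjusted p = 1.62e-07). Mansc4, a membrane protein gene of little-known function, was at 3.44, 2.82 and 4.92 CPM in the Clrn2-/- libraries and 22.3, 16 and 16.9 CPM in the double knockout (log2 fold change 2.29 ± 0.20 (SE), edgeR adjusted p = 1.07e-06). Cldn6, a claudin of tight junctions, rose from 0.912 to 4.68 CPM (means, log2 fold change 2.36) and Col6a6, a type VI collagen chain, from 0.346 to 1.72 CPM (2.28). Separated libraries were a condition of entry to this group of 10, so the gap between genotypes is no further evidence.

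The other members of this group of 10 need more care. Rps3a3, a ribosomal protein pseudogene, was at 1.02, 1.01 and 0.646 CPM in the Clrn2-/- libraries and 19.9, 17.8 and 14.2 CPM in the double knockout (log2 fold change 4.27 ± 0.15 (SE), edgeR adjusted p = 7.24e-11), and averaged 80.2 CPM in Clrn1-/- and 1.14 CPM in Wild-type organs. It is near-identical to its parent gene, so its counts are uncertain. Ifi202b, an interferon-inducible gene of the Ifi200 family, showed the same order, at 0.108, 0.0306 and 0.0843 CPM in the Clrn2-/- libraries and 1.31, 0.921 and 1.03 CPM in the double knockout, a mean of 4.13 CPM in Clrn1-/- and 0 CPM in Wild-type. Its Clrn2-/- libraries lie near the limit of 3 counts, so its fitted log2 fold change of 3.78 depends on the prior count. Both were thus higher in the 2 genotypes with the deleted Clrn1 allele, and lower in the double than in the single knockout. Ttr was at 7.29, 6.58 and 7.11 CPM in the Clrn2-/- libraries and 133, 8.83 and 8.64 CPM in the double knockout (log2 fold change 2.82 ± 0.76 (SE), edgeR adjusted p = 0.0117); without the first double knockout library the log2 fold change was 0.31 and the adjusted p 0.115.

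Clrn1 itself headed the decreases. March4, a membrane-bound ubiquitin ligase gene, was at 3.31, 2.51 and 2.87 CPM in the Clrn2-/- libraries and 0.754, 0.505 and 0.567 CPM in the double knockout (log2 fold change -2.26 ± 0.19 (SE), edgeR adjusted p = 7.05e-07). Rec8, which encodes a cohesin subunit best known from meiosis, was at 10.1, 7.25 and 10.3 CPM in the Clrn2-/- libraries and 2, 2.62 and 3.63 CPM in the double knockout (log2 fold change -1.73 ± 0.19 (SE), edgeR adjusted p = 9.73e-06). Ppp1r17, a phosphatase inhibitor of neurons, was at 7.83, 8.81 and 9.81 CPM in the Clrn2-/- libraries and 2.39, 3.18 and 3.4 CPM in the double knockout (log2 fold change -1.55 ± 0.16 (SE), edgeR adjusted p = 5.15e-06). These 3 genes averaged 0.693, 2.03 and 1.46 CPM in Clrn1-/- against 3.93, 10.8 and 6.34 CPM in Wild-type organs, so they were low in both genotypes that lack Clrn1. Dnajc5b, a co-chaperone gene of the cysteine-string family, fell from 1.43 to 0.436 CPM (log2 fold change -1.71), Ripor3 from 6.84 to 2.51 CPM (-1.44), the zona pellucida gene Zp1 from 3.9 to 1.35 CPM (-1.5) and the fast myosin light chain gene Myl1 from 6.83 to 2.71 CPM (-1.34). Alox12e (-2.42) and Art1 (-1.45) completed the 10 but lost their call when single libraries were left out. For Alox12e these were the third Clrn2-/- library (-2.09, adjusted p = 0.0571) and the first and second double knockout libraries (-2.10 and -2.26), and for Art1 the first and second Clrn2-/- libraries (-1.42 each) and the second and the third double knockout libraries (-1.37 and -1.04).

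Many genes of epithelial junctions were higher. Of 57 measured genes of tight and adherens junctions and desmosomes, 14 were called higher (24.6%, against 3.67% of all genes tested) and 0 lower (1.43% of all genes), 29 were higher and 3 lower on the adjusted p alone, and the median log2 fold change over the 57 was 0.25, against 0.00 over all genes. Among the claudins, the strand-forming proteins of tight junctions, Cldn9, which is required for hearing, was at 102, 85.2 and 109 CPM in the Clrn2-/- libraries and 188, 197 and 201 CPM in the double knockout (log2 fold change 0.99 ± 0.09 (SE), edgeR adjusted p = 1.07e-06). Its double knockout libraries were all above 180 CPM and its Clrn2-/- libraries all below 110 CPM. Cldn8 (0.91), Cldn7 (0.74), Cldn3 (0.77) and Cldn4 (0.72, which fell to 0.57 and below 1.5-fold without the second Clrn2-/- library) rose with it. Cldn2 passed too (1.38), at 0.242, 0.276 and 0.534 CPM in the Clrn2-/- libraries and 1.57, 0.565 and 0.67 CPM in the double knockout, but its call was lost without the first double knockout library (0.80, adjusted p = 0.154) and without the first or the second Clrn2-/- library (1.16 and 1.24). Ildr1, an angulin of the corners where 3 cells meet, was at 30.8, 25.5 and 35.8 CPM in the Clrn2-/- libraries and 54.3, 60.2 and 54 CPM in the double knockout (log2 fold change 0.87 ± 0.10 (SE), edgeR adjusted p = 1.57e-05), and Marveld3 rose from 13.4 to 24 CPM (0.84). Desmoplakin, Dsp, the plaque protein that ties desmosomes to keratin filaments, was at 17.7, 14.8 and 14.4 CPM in the Clrn2-/- libraries and 32.4, 32.6 and 33.1 CPM in the double knockout (log2 fold change 1.07 ± 0.09 (SE), edgeR adjusted p = 5.88e-07). Periplakin, Ppl (0.77), desmoglein-2, Dsg2 (0.72), plakophilin-3, Pkp3 (0.69), and the adhesion molecule Epcam (0.78) also rose.

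Among the keratins, the filaments that desmosomes anchor, 3 of 11 measured genes were called higher (27.3%, against 3.67% of all genes). None was called lower (1.43% of all genes), 4 were higher and 1 lower on the adjusted p alone, and the median was 0.08. Krt8 was at 15.2, 14.2 and 16.1 CPM in the Clrn2-/- libraries and 54.8, 56.1 and 56.1 CPM in the double knockout (log2 fold change 1.87 ± 0.06 (SE), edgeR adjusted p = 5.5e-11), and Krt18, its partner in simple epithelia, at 13.4, 13.5 and 14.6 CPM in the Clrn2-/- libraries and 38.4, 37.5 and 36.8 CPM in the double knockout (log2 fold change 1.44 ± 0.07 (SE), edgeR adjusted p = 1.89e-09). The 3 double knockout libraries of Krt8 lay close together and the genotypes were far apart for both genes. Krt23 rose from 1.66 to 3.1 CPM (0.90). Krt8 averaged 7.42 CPM in Wild-type and 14.5 CPM in Clrn1-/- organs, so the double knockout held the highest level of the 4 genotypes, as it did for Krt18 (8.54 and 13.3 CPM). Apart from the lists, 2 called genes were picked after their values were seen. Bcam, a laminin receptor of basal epithelial surfaces, was at 328, 276 and 331 CPM in the Clrn2-/- libraries and 828, 869 and 834 CPM in the double knockout (log2 fold change 1.44 ± 0.07 (SE), edgeR adjusted p = 4.73e-09). Hsd17b6, a retinol and steroid dehydrogenase, was at 14, 13.4 and 15.7 CPM in the Clrn2-/- libraries and 58.2, 70.3 and 60.7 CPM in the double knockout (log2 fold change 2.13 ± 0.12 (SE), edgeR adjusted p = 1.55e-08).

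**Figure D2:**
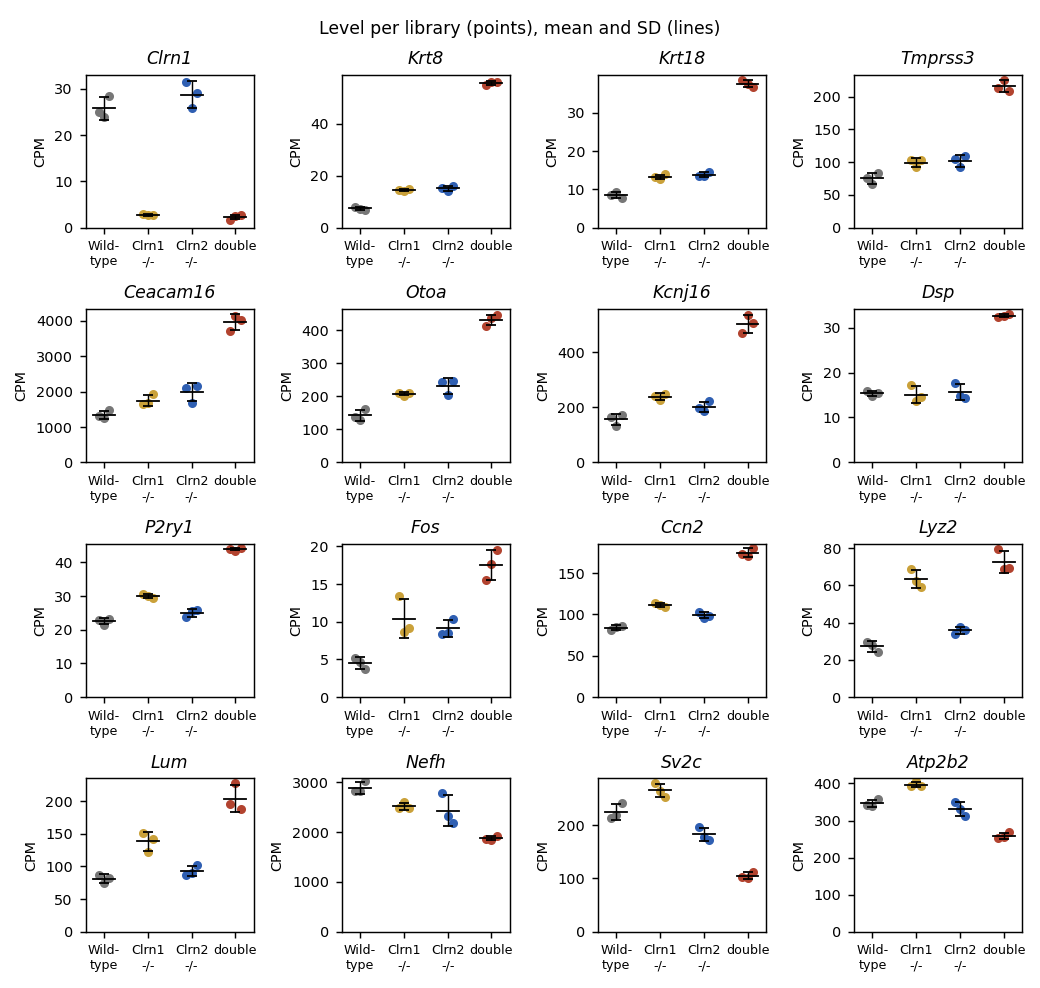
Levels of 16 genes in all 12 libraries, in CPM on an axis that starts at 0. Points are libraries, the long bar is the mean of 3 and the whiskers are the SD; "double" is Clrn1-/-Clrn2-/-. Clrn1 falls to 2.71 CPM or less in the double knockout, Krt8 stands at 54.8 to 56.1 CPM against 14.2 to 16.1 CPM in Clrn2-/-, and Nefh, Sv2c and Atp2b2 lie lower than in Clrn2-/-.

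The matrix that overlies the hair bundles and its attachments came next. Of 17 measured genes listed for the tectorial membrane and bundle attachment, 6 were called higher (35.3%, against 3.67% of all genes tested). None was called lower (1.43% of all genes), and the median log2 fold change was 0.40. Not all 6 are confined to this matrix. Coch is also counted with the fibroblast markers and Col4a3 with the further collagens, and Tmprss3 is a protease that hair cells need. Ceacam16, a secreted protein of the tectorial membrane and one of the most abundant transcripts of the organ, was at 2104, 1685 and 2163 CPM in the Clrn2-/- libraries and 3718, 4148 and 4020 CPM in the double knockout (log2 fold change 1.00 ± 0.09 (SE), edgeR adjusted p = 2.12e-06). Otoa, whose product otoancorin fixes the membrane to the supporting cells beneath, was at 243, 204 and 248 CPM in the Clrn2-/- libraries and 412, 436 and 444 CPM in the double knockout (log2 fold change 0.90 ± 0.08 (SE), edgeR adjusted p = 1.07e-06). Tmprss3, a membrane-anchored serine protease that hair cells need to survive, was at 104, 92 and 109 CPM in the Clrn2-/- libraries and 212, 226 and 208 CPM in the double knockout (log2 fold change 1.08 ± 0.07 (SE), edgeR adjusted p = 1.02e-07). None of these overlapped between genotypes, where 21.6% of all genes tested lay higher in that way. The collagen genes Col11a1 (0.66) and Col4a3 (0.78) and the cochlin gene Coch (0.67, below 1.5-fold at 0.57 without the third double knockout library) were the other 3. Tectb, which encodes beta-tectorin, went the other way without passing the fold limit, at 69, 65.5 and 78.3 CPM in the Clrn2-/- libraries and 43.9, 52.8 and 53.6 CPM in the double knockout (log2 fold change -0.50, adjusted p = 0.00389).

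Of 42 supporting cell markers 9 were called higher (21.4%, against 3.67% of all genes) and 0 lower (1.43% of all genes). On the adjusted p alone 21 were higher and 6 lower, with a median log2 fold change of 0.20. Their summed level overlapped, at 12460, 13140 and 13570 CPM in Clrn2-/- and 13750, 13640 and 13410 CPM in the double knockout. Kcnj16, a potassium channel subunit, was at 196, 188 and 222 CPM in the Clrn2-/- libraries and 468, 535 and 504 CPM in the double knockout (log2 fold change 1.31 ± 0.08 (SE), edgeR adjusted p = 6.53e-08). Otoa, the activin antagonist gene Fst (from 6.13 to 11.1 CPM, 0.85), Emilin2 (from 212 to 374 CPM, 0.82), S100a6 (0.71) and the Notch modifier gene Lfng (0.69) kept their call in every fit. S100a1 (0.60), Epyc (0.63) and Npy (0.61) lost it when 1 of several libraries was left out. For S100a1 these were the first and second Clrn2-/- libraries and the second double knockout library (0.55 to 0.57), for Epyc the second library of either genotype (0.53 and 0.58), and for Npy all libraries but the second of Clrn2-/- (0.46 to 0.66). Sox2, a transcription factor of supporting cells, was at 38.4, 36.6 and 40 CPM in the Clrn2-/- libraries and 45, 45.3 and 42.7 CPM in the double knockout, a log2 fold change of 0.21 with an adjusted p of 0.0117.

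The genes of mechanotransduction itself, the opening of channels by deflection of the bundle, did not pass the limits. None of 13 genes of the transduction complex and tip link was called in either direction by edgeR, limma-voom or DESeq2. At an unadjusted p under 0.05, 4 were higher and 1 lower, and without the third Clrn2-/- library 2 were called higher and without the first double knockout library 1. Tmc1, a pore subunit of the channel, was at 21.1, 18.5 and 25.8 CPM in the Clrn2-/- libraries and 23.8, 26.5 and 23.2 CPM in the double knockout (log2 fold change 0.17 ± 0.11 (SE), edgeR adjusted p = 0.286), and Pcdh15, the lower part of the tip link, at 15.7, 13.6 and 17.3 CPM in the Clrn2-/- libraries and 21.3, 24.2 and 23.4 CPM in the double knockout (log2 fold change 0.56 ± 0.08 (SE), edgeR adjusted p = 0.000138). Among 14 genes related to transduction that the study singled out on samples of this series, which is therefore no independent evidence of a direction, 2 were called higher (Ceacam16 and Col11a1) and 0 lower. The other members read Otog 0.40, Ptprq 0.40, Ush1c 0.44, Diaph1 0.37, Espnl 0.79 (adjusted p = 0.0792), Espn 0.25, Strc -0.03, Otogl -0.05 and Pdzd7 -0.48 on the log2 scale, in addition to Tmc1, Pcdh15 and Tectb above. Clrn1 was the only called member among 12 Usher and ankle link genes. Of 45 genes of the actin core and growth of stereocilia, Gsn, the actin-severing protein gelsolin, was the only one called; it was at 845, 840.2 and 889 CPM in the Clrn2-/- libraries and 1516, 1542 and 1589 CPM in the double knockout (log2 fold change 0.85 ± 0.05 (SE), edgeR adjusted p = 6.57e-08), but it is also abundant in fibroblasts.

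Hair cell markers gave mixed values. Of 40, 2 were called higher (5%, against 3.67% of all genes) and 0 lower (1.43% of all genes), with a median log2 fold change of -0.04. Both calls were fragile: Calb1 (0.65) was lost without any 1 of 5 libraries (0.58 to 0.68) and Lmod3 (0.61) without the second Clrn2-/- or the third double knockout library (0.48 and 0.44). The motor protein gene of hair cells Myo7a was at 43.2, 41.8 and 49.1 CPM in the Clrn2-/- libraries and 51.1, 51.9 and 52.6 CPM in the double knockout (log2 fold change 0.21 ± 0.06 (SE), edgeR adjusted p = 0.021), Slc26a5, the outer hair cell motor prestin, at 24, 20 and 30.8 CPM in the Clrn2-/- libraries and 24.2, 25.8 and 25.7 CPM in the double knockout (log2 fold change 0.02), and Otof, needed for release at the inner hair cell synapse, at 101, 88.9 and 123.4 CPM in the Clrn2-/- libraries and 102, 111 and 110.2 CPM in the double knockout (0.05). These libraries overlapped for Slc26a5 and Otof. The summed level of the 40 was lower in all 3 double knockout libraries, at 3364, 3605 and 3600 CPM against 4899, 4227 and 4381 CPM, of which Calb2, the calcium buffer calretinin that auditory neurons also contain, was the most abundant at 2849, 2318 and 2334 CPM in the Clrn2-/- libraries and 1577, 1756 and 1742 CPM in the double knockout (log2 fold change -0.56 ± 0.08 (SE), edgeR adjusted p = 0.000112). In such bulk samples fewer cells of a type and less RNA per cell cannot be told apart. Of 17 hair cell transcription factors none was called by edgeR, limma-voom or DESeq2, with 5 higher and 2 lower at an unadjusted p under 0.05, and of 22 ribbon synapse genes Clrn1 was the only one called, while 8 were lower and 3 higher on the adjusted p alone. Ctbp2, the ribbon protein gene, was at 30, 29.5 and 29.5 CPM in the Clrn2-/- libraries and 26.6, 29.4 and 29.3 CPM in the double knockout (log2 fold change -0.06 ± 0.05 (SE), edgeR adjusted p = 0.438).

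Neuronal genes were lower by small amounts that rarely reached 1.5-fold. Of 36 neuron markers 1 was called higher and 1 lower, yet 22 were lower and 2 higher on the adjusted p alone, where 13.2% and 14.4% of all genes passed, and their median log2 fold change was -0.29. Their summed level did not overlap between genotypes, at 25500, 22650 and 21860 CPM in Clrn2-/- and 17920, 18130 and 18450 CPM in the double knockout. The neurofilament gene Nefh was at 2784, 2328 and 2194 CPM in the Clrn2-/- libraries and 1873, 1845 and 1921 CPM in the double knockout (log2 fold change -0.37 ± 0.07 (SE), edgeR adjusted p = 0.00141), and Pvalb, a calcium buffer of auditory neurons and hair cells, at 557, 526 and 511 CPM in the Clrn2-/- libraries and 378, 399 and 406 CPM in the double knockout (log2 fold change -0.43 ± 0.06 (SE), edgeR adjusted p = 0.000106). Snap25, a protein of transmitter release, was at 2380, 2294 and 2185 CPM in the Clrn2-/- libraries and 1576, 1571 and 1611 CPM in the double knockout (log2 fold change -0.53). Sncg, gamma-synuclein, was the called increase (from 46.1 to 79.4 CPM, 0.78). Th, an enzyme of dopamine synthesis, was the called decrease (from 13.9 to 9.03 CPM, -0.62). Without the first library of either genotype Th came to -0.53 and -0.56, below 1.5-fold. The marker sums of Schwann cells, which wrap these axons, were 25730, 26900 and 26640 and 24650, 26270 and 24790 CPM, and 1 of their 25 genes was called, Mpzl2 (0.59), which fell below 1.5-fold without the first or second Clrn2-/- or the second or the third double knockout library (0.55 to 0.57). The modiolus, where the neurons lie, was removed at dissection, and the part that differences in the neural tissue left with each organ had in these values was not tested.

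Synaptic genes followed the neuron markers. Among 55 genes of synaptic vesicles and release 32 were lower and 4 higher on the adjusted p alone, with a median of -0.23. Sv2c, a vesicle protein, was called lower at 197, 178 and 172 CPM in the Clrn2-/- libraries and 102, 99.8 and 113 CPM in the double knockout (log2 fold change -0.80 ± 0.06 (SE), edgeR adjusted p = 5.88e-07), and Syt5 was called higher (0.82) but lost its call without the first or second Clrn2-/- library (0.77 and 0.64) or the second or the third double knockout library (0.69 and 0.80). Of 54 glutamate receptor genes 15 were lower and 3 higher on the adjusted p alone. Grm2, at 0.377, 0.276 and 0.506 CPM in the Clrn2-/- libraries and 0.164, 0.119 and 0.155 CPM in the double knockout, was the only one called (-1.39), and only the fit without the second Clrn2-/- library kept that call (others -1.17 to -1.48). Gria2, a subunit of the AMPA receptors that receive the hair cell signal, was at 38.9, 43.3 and 44.2 CPM in the Clrn2-/- libraries and 31.5, 37.7 and 36.5 CPM in the double knockout (log2 fold change -0.26 ± 0.09 (SE), edgeR adjusted p = 0.0521), and Dlg4, the postsynaptic scaffold, at 152, 144 and 142 CPM in the Clrn2-/- libraries and 115, 118 and 114 CPM in the double knockout (log2 fold change -0.34 ± 0.04 (SE), edgeR adjusted p = 1.46e-05). The synaptic adhesion genes Cntnap3 (-1.12), Lrrtm3 (-0.67) and Slitrk3 (-0.63) were called lower and Nlgn1 (from 5.81 to 9.88 CPM, 0.77) higher, of 49. Of 70 axon guidance genes, Efna3 (0.88) and Ntn4 (from 40.3 to 67.4 CPM, 0.74) were higher and Epha10 (-0.65) lower, shares of 2.86% and 1.43% that did not exceed those of all genes.

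Ion transport genes moved in both directions. Of 86 potassium channel genes 6 were called higher and 4 lower, shares of 6.98% and 4.65%, against 3.67% and 1.43% of all genes. On the adjusted p alone 13 were higher and 25 lower, where 14.4% and 13.2% of all genes passed, with a median of -0.12. Without the first library of either genotype 3 were called higher, and without the third Clrn2-/- library 7 were called lower. The inward rectifiers Kcnj15, at 3.66, 4.07 and 5.14 CPM in the Clrn2-/- libraries and 13.9, 14.4 and 13.2 CPM in the double knockout (log2 fold change 1.69 ± 0.13 (SE), edgeR adjusted p = 5.2e-07), and Kcnj16 rose most clearly, and Kcng1 (from 3.06 to 6.37 CPM, 1.06) kept its call as well. Kcnj10, the inward rectifier of supporting cells and glia (from 229.6 to 346 CPM, 0.59), stood just past 1.5-fold and fell short of it without the first or second library of either genotype (0.56 to 0.58). Kcnj4 (1.14) and Kcne2 (0.89) were low and lost their calls without any 1 of 5 and of 4 libraries, with values of 0.86 to 1.29 and 0.78 to 0.91. Lrrc52 (-1.14), Kcnj14, at 6.75, 7.32 and 6.97 CPM in the Clrn2-/- libraries and 3.74, 3 and 3.38 CPM in the double knockout (log2 fold change -1.06 ± 0.12 (SE), edgeR adjusted p = 1.46e-05), Kcnip3 (from 16.2 to 9.61 CPM, -0.76) and Kcnk10 (-0.62; -0.55 without the second double knockout library) were the called decreases, and Kcnma1, the large-conductance channel of inner hair cells, was at 80.5, 73.7 and 68.5 CPM in the Clrn2-/- libraries and 61.7, 63 and 68.3 CPM in the double knockout (log2 fold change -0.21 ± 0.06 (SE), edgeR adjusted p = 0.0176). Scn4b, a sodium channel beta subunit of axons, was lower at 609, 556 and 514 CPM in the Clrn2-/- libraries and 363, 364 and 382 CPM in the double knockout (log2 fold change -0.60 ± 0.06 (SE), edgeR adjusted p = 6.1e-06), and without the first Clrn2-/- library came to -0.54. None of 22 calcium channel genes was called by edgeR, limma-voom or DESeq2, with 2 higher and 8 lower at an unadjusted p under 0.05. Of 35 genes of calcium pumps, exchangers and buffers, Ryr1, an intracellular calcium release channel (from 4.75 to 8.47 CPM, 0.84), and Calb1 were higher, and Atp2b2, the calcium pump of stereocilia, was at 350.4, 331 and 311 CPM in the Clrn2-/- libraries and 254, 255 and 268 CPM in the double knockout (log2 fold change -0.35 ± 0.05 (SE), edgeR adjusted p = 5.72e-05). Of 13 connexins and pannexins, Panx3 was called (1.12) and lost without the second or the third Clrn2-/- or the first double knockout library (0.90 to 1.05).

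Immediate-early genes, which cells switch on soon after stimulation, rose in 9 of 34 cases (26.5%, against 3.67% of all genes). None was called lower (1.43% of all genes), and 23 rose and 0 fell on the adjusted p alone. Their median log2 fold change was 0.42. Fos, a subunit of the AP-1 transcription factor, was at 8.39, 8.51 and 10.4 CPM in the Clrn2-/- libraries and 15.5, 17.6 and 19.5 CPM in the double knockout (log2 fold change 0.95 ± 0.15 (SE), edgeR adjusted p = 0.000295), and Ccn2, a secreted growth factor that responds to strain and serum, at 103, 95.4 and 98.7 CPM in the Clrn2-/- libraries and 173, 171 and 180.5 CPM in the double knockout (log2 fold change 0.82 ± 0.04 (SE), edgeR adjusted p = 4.96e-09). Every double knockout library lay above every Clrn2-/- library in both, as for 21.6% of all genes tested. Ccn1 (from 23.3 to 41.1 CPM, 0.82), Egr3 (0.75), and the phosphatase genes Dusp1 (from 34.9 to 56.9 CPM, 0.71) and Dusp6 (from 27.5 to 42.4 CPM, 0.63), which damp MAP kinase signalling, kept their calls in every fit. Egr1 (0.65) fell below 1.5-fold without the first Clrn2-/- or the third double knockout library (0.55 and 0.57), Junb (0.65) without the first Clrn2-/- library (0.53) and Dusp5 (0.64) without the third double knockout library (0.46). Such genes also respond to handling before tissue is frozen, and the part of dissection time was not tested.

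The promoters of 2 of these genes are shown because they hold response elements of the kind known from early genes. The 250 bases before the start were taken from RefSeq (GRCm38.p6), which gave 12957 of the genes tested and 6 of the 9 that rose. Capitals mark the cyclic AMP response element TGACGTCA, held by 2.57% of the 12957 promoters, in Dusp1, and in Dusp5 a pair of adjoining CArG boxes, the binding sequence of serum response factor, at least 1 of which is held by 1.14%. Each element was searched on both strands and each was held by 1 of the 6. Among promoters of genes called higher, TGACGTCA was held by 2.11% and the CArG box by 0.469%, below the shares of all. Among those of genes called lower the shares were 1.96% and 0.654%. Another sequence searched, AACCNGTT, was held by 2.82% for genes called higher and 3.92% for genes called lower, against 1.63% of all, and by 1 of the 6, Dusp6. TGANTCA, the sequence bound by AP-1 factors such as Fos, was held by 44 of the 426 promoters given for genes called higher (10.3%) and by 16 of the 153 for genes called lower (10.5%), against 4.65% of all, but by none of these 6. Read 5′ to 3′ in the direction of transcription, they are:
Dusp1 (chr17:26508473-26508722, minus strand): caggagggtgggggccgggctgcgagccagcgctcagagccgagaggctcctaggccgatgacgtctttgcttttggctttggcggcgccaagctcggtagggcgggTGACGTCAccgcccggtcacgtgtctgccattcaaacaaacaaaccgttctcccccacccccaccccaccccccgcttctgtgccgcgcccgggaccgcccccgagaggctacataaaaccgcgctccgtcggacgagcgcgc
Dusp5 (chr19:53528895-53529144, plus strand): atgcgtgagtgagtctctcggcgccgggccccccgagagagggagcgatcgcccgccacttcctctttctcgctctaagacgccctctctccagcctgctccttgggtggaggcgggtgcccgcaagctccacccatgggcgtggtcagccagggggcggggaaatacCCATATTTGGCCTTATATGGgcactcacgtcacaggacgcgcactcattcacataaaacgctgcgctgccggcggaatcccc
Of the 14 junction genes that rose 8 had a promoter, and that of the claudin gene Cldn6 holds the cyclic AMP response element close to its start and is shown for comparison:
Cldn6 (chr17:23679115-23679364, plus strand): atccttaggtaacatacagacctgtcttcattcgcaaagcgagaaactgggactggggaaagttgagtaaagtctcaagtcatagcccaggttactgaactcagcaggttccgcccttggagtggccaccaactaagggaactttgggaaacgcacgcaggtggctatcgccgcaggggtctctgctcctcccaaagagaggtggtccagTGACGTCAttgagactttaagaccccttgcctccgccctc
A match is a description of the sequence, not of binding.

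Few stress genes reached 1.5-fold. Of 53 targets of the integrated stress response, 2 were called higher, the transcription factor gene Cebpb, at 18.7, 16.4 and 14 CPM in the Clrn2-/- libraries and 37.7, 36.4 and 33.4 CPM in the double knockout (log2 fold change 1.13 ± 0.11 (SE), edgeR adjusted p = 3.31e-06), and the lipoprotein receptor gene Vldlr (from 46.1 to 72 CPM, 0.64). Fgf21, a stress hormone, was called lower at 6.16, 4.93 and 6.52 CPM in the Clrn2-/- libraries and 2.79, 4.25 and 1.8 CPM in the double knockout (log2 fold change -1.0 ± 0.24 (SE), edgeR adjusted p = 0.00558), as was Chac1 (-0.61), which fell short of 1.5-fold without the first Clrn2-/- or the first or the third double knockout library (-0.53 to -0.56). On the adjusted p alone 5 of the 53 were higher and 20 lower, against 14.4% and 13.2% of all genes, and their summed level was 4526, 4525 and 4293 CPM in Clrn2-/- and 3995, 4055 and 3999 CPM in the double knockout. Chaperones of the endoplasmic reticulum showed 0 calls of 33 by edgeR, limma-voom or DESeq2, but 18 were higher and 1 lower at an unadjusted p under 0.05, and 16 and 1 on the adjusted p, with a median of 0.15. Of 26 heat shock protein genes Hspa2 rose (from 45.2 to 71.7 CPM, 0.66), and of 23 clock genes Nr1d1, the transcriptional repressor REV-ERB alpha (from 83.5 to 137 CPM, 0.71). Clock genes move with the hour of dissection, which is not stated. Of 21 BCL2 family genes Bcl2l14 rose (from 3.71 to 7.28 CPM, 0.97), and none of 48 antioxidant enzyme genes was called by the 3 tools, with 8 higher and 11 lower at an unadjusted p under 0.05.

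Developmental signalling genes were called higher in places, where 3.67% of all genes were called higher and 1.43% lower. Of 52 Wnt pathway genes 26 were higher and 0 lower on the adjusted p alone, and 7 rose by call (13.5%): the receptor gene Lgr6, at 7.18, 7.71 and 9.58 CPM in the Clrn2-/- libraries and 19.6, 24.1 and 21.9 CPM in the double knockout (log2 fold change 1.42 ± 0.10 (SE), edgeR adjusted p = 2.72e-07), the ligand gene Wnt7b, at 28.4, 25.6 and 32.3 CPM in the Clrn2-/- libraries and 55.3, 57.9 and 55.2 CPM in the double knockout (log2 fold change 0.96 ± 0.10 (SE), edgeR adjusted p = 5.51e-06), Wif1 (0.62), Sfrp1 (0.61), Rspo2 (0.61), Fzd8 (0.60) and Fzd7 (0.59). The last 5 lay close to the limit and lost their call without 1 to 4 of the libraries (0.48 to 0.58), and 4 of the 7 were called without the second or the third double knockout library. Of 63 genes of the TGF-beta and BMP pathway 20 were higher and 3 lower on the adjusted p alone, and 7 rose by call (11.1%), with Bmp6 the most abundant, at 127, 119 and 134 CPM in the Clrn2-/- libraries and 217, 220.3 and 213 CPM in the double knockout (log2 fold change 0.77 ± 0.05 (SE), edgeR adjusted p = 3.4e-08). Bmp2, another ligand (from 4.28 to 7.88 CPM, 0.88), the antagonists Grem1 (1.18) and Fst, Gdf6 (0.70; 0.51 without the second Clrn2-/- library), Tgfb1 (0.60; 0.52 without the first double knockout library) and Bmp8a (1.10; 0.87 and 0.88 without the first library of either genotype) were the others. Of 25 Notch pathway genes Lfng, at 21.1, 19.7 and 24.3 CPM in the Clrn2-/- libraries and 34.7, 36.2 and 34.3 CPM in the double knockout (log2 fold change 0.69 ± 0.07 (SE), edgeR adjusted p = 5.41e-06), and the receptor gene Notch1 (0.60; 0.53 and 0.57 without the second library of either genotype) rose, and on the adjusted p alone 10 were higher and 1 lower. Of 21 neurotrophin and glial factor genes 3 rose: Bdnf, which sustains auditory neurons (from 7.79 to 12 CPM, 0.62), Lif (1.29) and Gfra3 (1.96). All 3 lost their call without the first Clrn2-/- library (0.58, 0.95 and 1.79), and 1 of them was called without the third double knockout library.

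Macrophage markers were higher among the immune genes. Of 29 macrophage markers 6 were called higher (20.7%, against 3.67% of all genes) and 0 lower (1.43% of all genes). A positive log2 fold change was found for 28, and the median was 0.42. Their summed level was 426, 511 and 457 CPM in Clrn2-/- and 649, 599 and 579 CPM in the double knockout. Lyz2, the lysozyme of myeloid cells, was at 34.1, 37.5 and 35.9 CPM in the Clrn2-/- libraries and 79.5, 68.9 and 69.1 CPM in the double knockout (log2 fold change 1.02 ± 0.08 (SE), edgeR adjusted p = 4.38e-07), and Cd68, a lysosomal protein, and Ms4a7 rose from 5.71 to 10.9 CPM (0.93) and from 2.77 to 5.31 CPM (0.93). Lyve1 (0.99), Adgre1 (0.63) and Tyrobp (0.60) lost their call without the first Clrn2-/- library (0.70, 0.50 and 0.51), among others, so that 3 of 29 were called without it. None of 62 interferon-stimulated genes was called by edgeR or limma-voom, with 6 higher and 9 lower at an unadjusted p under 0.05, and DESeq2 called 1 lower. The Ifi200 family, a cluster of near-identical genes on chromosome 1 whose reads can be split between copies, had 1 of 12 higher (Ifi202b) and 3 lower, of which limma-voom called 1: Mndal (-0.74), Ifi213 (-0.95) and Ifi206 (-0.91). No fit without the second Clrn2-/- or the third double knockout library called any of these 3 (-0.55 to -0.88). Of 22 complement and acute-phase genes 4 rose, of which Serpina3n (from 1.93 to 4.3 CPM, 1.16) held in every fit, while C1s1 (0.60), Cp (0.59) and C4b (0.59) were at the fold limit and fell under it without the first Clrn2-/- library (0.50 to 0.55), which left 1 of the 22. H2-DMb1 was called among 9 genes of class II presentation (0.61; 0.51 and 0.58 without the first library of either genotype), and none of 18 neutrophil and B-lineage markers was, by edgeR, limma-voom or DESeq2, with 1 higher and 0 lower at an unadjusted p under 0.05.

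Markers of other cells that a dissected organ of Corti may hold moved too. Of 24 fibroblast markers 6 were called higher (25%, against 3.67% of all genes) and 1 lower (4.17%, against 1.43%). Their summed level was 8047, 8381 and 8689 CPM in Clrn2-/- and 11290, 11990 and 12610 CPM in the double knockout. Coch, the most abundant of them, was at 3223, 3411 and 3704 CPM in the Clrn2-/- libraries and 4891, 5460 and 6091 CPM in the double knockout. Lum, a collagen-binding proteoglycan, was at 86.8, 90.5 and 102 CPM in the Clrn2-/- libraries and 195, 227 and 189 CPM in the double knockout (log2 fold change 1.13 ± 0.09 (SE), edgeR adjusted p = 4.56e-07), and Postn, periostin, at 7.24, 7.04 and 6.29 CPM in the Clrn2-/- libraries and 14.1, 15.4 and 14.5 CPM in the double knockout (log2 fold change 1.10 ± 0.08 (SE), edgeR adjusted p = 3.37e-07). Gsn, Otor (from 36.1 to 61.8 CPM, 0.77), Coch and Cp were the other increases and Slc4a10 (-0.93; -0.78, adjusted p = 0.0517, without the second double knockout library) the decrease. Lox (from 93.6 to 211 CPM, 1.17), a collagen cross-linking enzyme outside the lists that was picked after its values were seen, rose with Loxl4. Of 35 further collagens Col6a6 and Col4a3 rose, with 14 higher and 0 lower on the adjusted p alone. Col4a3 was also counted in the tectorial list above. Of 41 matrix proteases and inhibitors Timp2 rose (from 271 to 421 CPM, 0.63). Among 14 bone markers Ibsp, bone sialoprotein, was at 14.3, 23.9 and 22.8 CPM in the Clrn2-/- libraries and 61.9, 78.3 and 56.7 CPM in the double knockout (log2 fold change 1.69 ± 0.27 (SE), edgeR adjusted p = 0.000281), and Mepe (1.55) and Runx2 (0.65) lost their call without the first library of either genotype (1.19 and 1.34, and 0.49 and 0.60), which left 1 of the 14, and Runx2 also without the second double knockout library (0.63). The bone marker sums overlapped, at 1911, 1863 and 1878 and 1769, 1917 and 2117 CPM. How far the amount of each tissue left in the dissection took part in these values was not tested.

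Skeletal muscle markers were lower in sum, at 734, 696 and 684 CPM in Clrn2-/- and 524, 551 and 552 CPM in the double knockout. Of 27, 4 were called lower (14.8%, against 1.43% of all genes) and 0 higher (3.67% of all genes), with a median of -0.34. On the adjusted p alone 10 were lower and 2 higher, and 8 of the 27 had a positive log2 fold change. Myl1 was at 7.72, 6.55 and 6.21 CPM in the Clrn2-/- libraries and 3.08, 2.65 and 2.4 CPM in the double knockout (log2 fold change -1.34 ± 0.13 (SE), edgeR adjusted p = 3.25e-06), and Pygm, the glycogen phosphorylase of muscle, at 42.1, 42.6 and 40.3 CPM in the Clrn2-/- libraries and 27.5, 25 and 23.2 CPM in the double knockout (log2 fold change -0.73 ± 0.07 (SE), edgeR adjusted p = 3.31e-06). Myh8 (-1.69) and Tnni2 (-0.98) were low and lost their calls without 4 and 5 of the 6 libraries (-1.30 to -1.60 and -0.81 to -1.01). Of 14 red cell markers Hba-a2 was called higher (0.72), a near-identical copy of Hba-a1, and not without the first or the third Clrn2-/- or the first double knockout library (0.53 to 0.65). Pigment cell genes varied within genotypes: Dct was at 57.9, 43 and 10.1 CPM in the Clrn2-/- libraries and 9.64, 5.38 and 15.3 CPM in the double knockout, so its called log2 fold change of -1.86 came with overlapping libraries and was lost without 4 of the 6 libraries (-1.38 to -1.83), whereas Pmel, another melanosome gene, was called higher at 3.2, 2.6 and 2.98 CPM in the Clrn2-/- libraries and 6.98, 5.74 and 9.62 CPM in the double knockout (log2 fold change 1.35 ± 0.19 (SE), edgeR adjusted p = 0.000118). Of 19 stria vascularis markers 2 were higher (Pmel and Kcnj10) and 2 lower, Dct and Esrrb (-0.65; -0.47 and -0.56 without the first Clrn2-/- or second double knockout library), and of 20 endothelial markers Emcn rose (from 65.2 to 102 CPM, 0.64). None of 6 sex-linked genes was called by edgeR, limma-voom or DESeq2, and 0 had an unadjusted p under 0.05. Of the 13 melanocyte markers 1 was higher and 1 lower, and without the third Clrn2-/- library 5 of these and 5 stria markers were called lower.

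Metabolic and housekeeping lists held few calls. Of 84 nuclear genes of oxidative phosphorylation Cox7a1 was called higher (0.62; 0.50 without the first double knockout library), while 31 were lower and 4 higher on the adjusted p alone, with a median of -0.12. Of 46 genes of glycolysis and glucose transport Pdk4 (from 33.2 to 50.9 CPM, 0.62) and Hk3 (0.69) were higher and Pygm lower; Pdk4 came to 0.54 to 0.58 without the third Clrn2-/- or the second or the third double knockout library, and Hk3 to 0.54 to 0.70 without any 1 of 4. On the adjusted p alone 18 of the 46 were lower and 6 higher, with a median of -0.12, and their sums were 9049, 8398 and 8169 CPM in Clrn2-/- and 7604, 7554 and 7702 CPM in the double knockout. Srebf1, the master regulator gene of lipid synthesis, rose from 199 to 358 CPM (log2 fold change 0.85 ± 0.07 (SE), edgeR adjusted p = 5.06e-07), alone among 26 genes of cholesterol synthesis, where 8 were lower and 2 higher on the adjusted p alone. Of 24 genes of lipid and retinoid handling Apod, a lipocalin of glia and fibroblasts, was at 2889, 2393 and 2595 CPM in the Clrn2-/- libraries and 3894, 3950 and 4855 CPM in the double knockout (log2 fold change 0.69 ± 0.09 (SE), edgeR adjusted p = 6.96e-05; 0.56 without the third double knockout library) and Lpl came to 0.61 (0.57 and 0.54 without the third library of either genotype). Crabp1, a retinoic acid carrier, fell from 6.52 to 3.79 CPM (-0.79). Of 81 cytosolic ribosomal protein genes Rpl29 was called lower, at 119, 116 and 120.4 CPM in the Clrn2-/- libraries and 52.4, 68.4 and 83.2 CPM in the double knockout (log2 fold change -0.80 ± 0.10 (SE), edgeR adjusted p = 4.42e-05), with 7.62 CPM in Clrn1-/- and 111 CPM in Wild-type organs; reads of such genes can be shared with their pseudogenes. Among 33 cell cycle genes Bub1b fell (from 4.85 to 2.55 CPM, -0.93), and Aurkb (0.75) and Ccna2 (0.69) rose in calls that were lost without any 1 of 5 and of 6 libraries (0.51 to 0.79 and 0.52 to 0.77). None of 9 caveolin and cavin genes was called by edgeR, limma-voom or DESeq2, with 5 higher and 1 lower at an unadjusted p under 0.05, and of 149 zinc finger genes Zfp648 (-2.04) and Zfp951 (from 5.47 to 2.54 CPM, -1.11) fell, a share of 1.34% near that of all genes. DESeq2 gave no adjusted p for Zfp648.

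**Figure D3:**
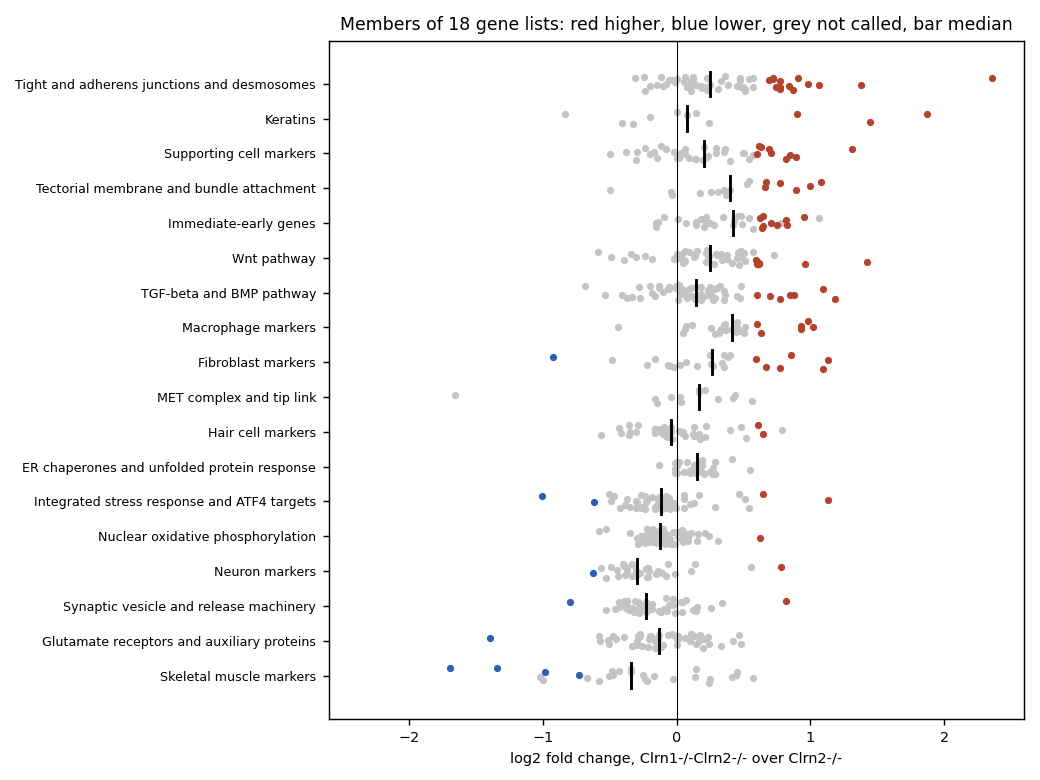
Fitted log2 fold changes, double knockout over Clrn2-/-, of the measured members of 18 gene lists. Each point is 1 gene, red if called higher, blue if called lower, grey if not called; the black bar is the median of the list. Junction, keratin, tectorial and immediate-early lists carry red points only, with medians of 0.25, 0.08, 0.40 and 0.42, and the neuron and vesicle lists lie mostly left of 0, with medians of -0.29 and -0.23 and 1 red and 1 blue point each.

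Chromosome 3, which carries Clrn1, held the highest share of called genes of any chromosome: 64 of its 998 tested genes were higher and 18 lower, or 8.22%, against 3.33% to 7.82% on the other autosomes and the X and 4.90% of genes off chromosome 3. Within 10 Mb of the start of Clrn1, and leaving Clrn1 out, 10 of 114 genes were higher and 5 lower (13.2%), and on the rest of the chromosome the share was 7.47%. The deleted Clrn1 allele and the alleles linked to it differ together between the genotypes, so their parts in these values cannot be told apart. Rarres1, retinoic acid receptor responder 1, was at 7.93, 7.99 and 11.5 CPM in the Clrn2-/- libraries and 21.2, 22.8 and 26 CPM in the double knockout (log2 fold change 1.35 ± 0.13 (SE), edgeR adjusted p = 2.81e-06), and P2ry1, the ATP and ADP receptor gene of supporting cells, at 23.6, 25.6 and 25.9 CPM in the Clrn2-/- libraries and 44, 43.5 and 44.3 CPM in the double knockout (log2 fold change 0.81 ± 0.05 (SE), edgeR adjusted p = 5.18e-08). Tm4sf1, a tetraspanin-like membrane protein, was at 82.2, 77.8 and 87.5 CPM in the Clrn2-/- libraries and 138, 144 and 144 CPM in the double knockout (log2 fold change 0.78 ± 0.05 (SE), edgeR adjusted p = 3.75e-08). The receptor gene P2ry13 (0.77), Postn, Mme, a membrane peptidase (from 142 to 218 CPM, 0.61; 0.53 without the second double knockout library), Igsf10 (0.62; 0.49 without the first Clrn2-/- library) and Mlf1 (0.64; 0.52, adjusted p = 0.0511, without the same library) rose. The low genes Mgarp (-2.06) and Mgst2 (-1.04) fell, in calls lost without any 1 of 5 libraries (-1.68 to -2.47 and -0.83 to -1.15). Mindy4b-ps, the called gene nearest to Clrn1, rose from 11.1 to 16.7 CPM (0.59; 0.50 to 0.56 without the first or the third Clrn2-/- or the third double knockout library). The other 4 called neighbours were gene models or unnamed transcripts. In Clrn1-/- against Wild-type the share within 10 Mb was 8.77%, against 8.95% on the rest of chromosome 3 and 7.04% off it.

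**Figure D4:**
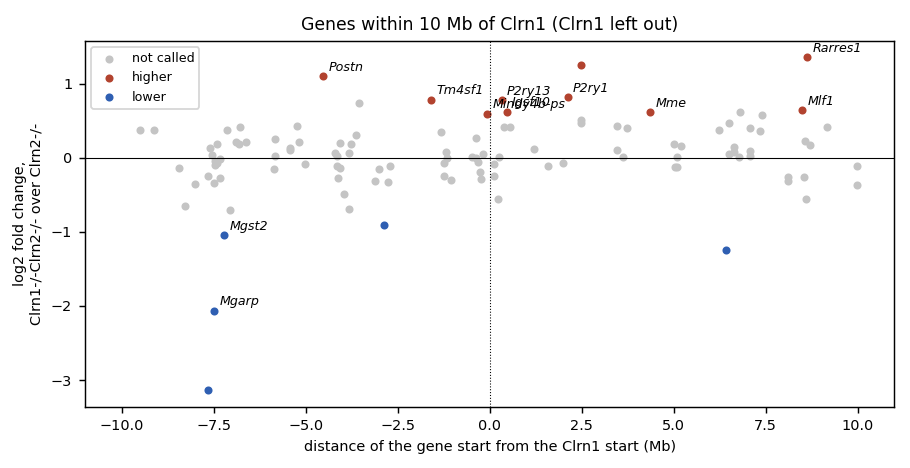
Genes within 10 Mb of Clrn1, without Clrn1. The x axis is the distance of each gene start from the start of Clrn1 in Mb, the y axis the fitted log2 fold change of the double knockout over Clrn2-/-; red points are called higher (10), blue called lower (5), grey not called. Rarres1, at 8.63 Mb, is the highest at 1.35, and called genes lie on both sides of Clrn1.

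Whether loss of Clrn1 gave the same changes with clarin-2 present was asked by setting the comparison beside Clrn1-/- against Wild-type, which shares no library with it. In that comparison 670 genes (3.52%) were higher and 705 (3.70%) lower. The increases in common numbered 190, which is 27.2% of those on the Clrn2-/- background and 28.4% of those on the Wild-type background, and the decreases in common 119, or 43.6% and 16.9%. Another 39 genes rose on the Clrn2-/- background and fell on the other, and 13 did the reverse. Over all 19052 genes the 2 sets of log2 fold changes had a Pearson r of 0.35, given as a description, since all 12 libraries shared 1 scaling and 1 fit. Alox15 (2.69 and 2.97), Lyz2 (1.02 and 1.22), Postn (1.10 and 1.02), March4 (-2.26 and -2.49) and Ppp1r17 (-1.55 and -2.11) were called in both, and their 2 effects did not differ past the limits.

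The difference between the effects was then tested itself, as the interaction of the 2 genotypes. It was called for 1048 genes (5.50%), the effect being more positive on the Clrn2-/- background for 683 (3.58%) and more negative for 365 (1.92%). Of the 470 genes called higher on the Clrn2-/- background alone, the difference was called for 166, and of the 141 called lower alone for 36, so for most of them the effect was not shown to differ. Dsp moved by 1.07 on the Clrn2-/- and by -0.03 on the Wild-type background (difference 1.09, adjusted p = 3.06e-05), and Krt8 by 1.87 and 0.97 (difference 0.90, adjusted p = 1.19e-05). Cebpb went from -0.39 on the Wild-type to 1.13 on the Clrn2-/- background (difference 1.53, adjusted p = 1.19e-05), and Actn1, an actin cross-linker picked after its values were seen, from -0.19 to 0.81 (difference 1.00, adjusted p = 2.5e-07). In the other direction, Sv2c had log2 fold changes of -0.80 on the Clrn2-/- and 0.24 on the Wild-type background (difference -1.04, adjusted p = 2.75e-06), and Tectb -0.50 and 1.12 (difference -1.63, adjusted p = 1.08e-05). Myl1 fell on the first and rose on the second background (-1.34 and 2.06, difference -3.41, adjusted p = 3.99e-09), as did Zp1 (-1.5 and 1.23, difference -2.72, adjusted p = 0.000359). The Wild-type mice came from breedings of their own, and what that adds to the differences cannot be told apart from clarin-2.

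**Figure D5:**
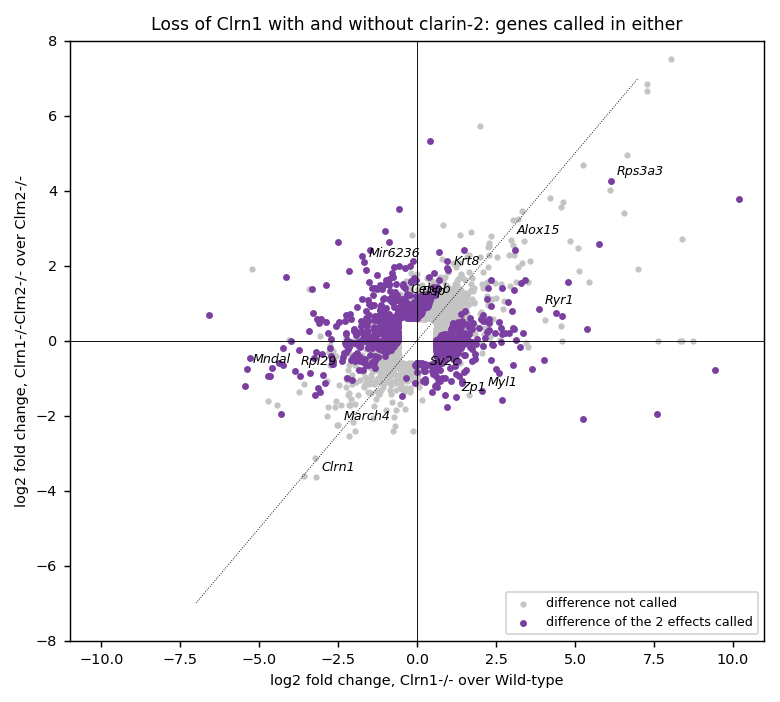
Effect of Clrn1 loss on both backgrounds for the genes called in either. The x axis is the log2 fold change of Clrn1-/- over Wild-type, the y axis that of the double knockout over Clrn2-/-; purple points have a called difference of the 2 effects, grey ones do not, and the dotted line marks equal effects. Clrn1, March4 and Alox15 lie near the line; Myl1 and Zp1 lie right of 0 and below it, Cebpb and Mir6236 left of 0 and above it. Some extreme values belong to genes with few reads, whose fitted fold depends on the prior count. Others, such as Rps3a3 and Rpl29, have more reads, which can be shared with near-identical copies.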

How the data were processed

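Poly-A RNA of the organ of Corti was sequenced as strand-specific paired reads. The authors mapped them with STAR to GRCm38.p6 with a Gencode annotation and deposited counts per gene and library, neither normalised nor filtered; the labels' processing notes also name DESeq2. Of the 3 count columns, column 4 (reverse strand) was used here; the 4 totals of unassigned reads, 13.5% to 15.8% of each of the 6 libraries, were left out. The 55348 genes were filtered with filterByExpr (minimum count 10), and 19052 were tested in 1 fit of all 12 libraries by genotype, with edgeR 4.0.16 (TMM scaling, quasi-likelihood test, Benjamini-Hochberg adjustment) in R 4.3.3. A call needed an adjusted p of at most 0.05 and 1.5-fold. The study's methods name limma-voom, which with DESeq2 1.42.0 (limma 3.58.1) was an alternative, as were other scalings, filters, a replicate block and each library left out. Scripts were tested on simulated data.

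Genes were named by rule: Clrn1 and Clrn2; the 10 largest changes per direction with separated libraries and a mean of at least 1 CPM, without gene models and pseudogenes that carry such symbols; up to 3 called members per direction from each list; genes the study stained or singled out; and called genes within 10 Mb of Clrn1. Further members are given to complete lists, and those picked after their values were seen are marked. The members and lists were chosen with earlier results of these data known. Of the 55348 gene symbols in the counts, 53244 matched the Gencode M21 annotation once, which gave biotypes and GRCm38 coordinates. The study names another Gencode release for its counts. Standard errors were taken from the fold change and the F statistic. Promoters came from RefSeq. Total counts per library were 30008679 to 38742142, so 1 CPM stands for about 30 counts or more; the precision given by counts covers counting error only. Proteins were not analysed here, and results of a few listed genes are not reported here.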

Additional observations from a re-analysis of the deposited data

Results flagged for a closer look

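In 50 of the 148 named genes the effect of losing Clrn1 differed between the Clrn2-/- and the Wild-type background, with an adjusted p no higher than 0.05 and a change of 1.5-fold or more for the interaction term of edgeR. Of the 148, 127 were called between the double knockout and Clrn2-/-, which is 1 side of the interaction term, so neither this count nor its split by sign is set against that of all genes. Each value below is the log2 fold change of the double knockout over Clrn2-/- minus that of Clrn1-/- over Wild-type. It was positive for 36 genes and negative for 14.

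Among epithelial and sensory genes the difference was 0.90 for Krt8, 0.81 for Krt18, 1.12 for Krt23, 1.09 for Dsp, 1.65 for Cldn6, 0.95 for Prss22, 0.68 for Tmprss3, 0.62 for Ceacam16, 0.71 for Kcnj16 and 0.69 for Gsn. It was negative for Tectb (-1.63) and Lmod3 (-1.06). Among neuronal, channel and retinoid genes it was negative for Sv2c (-1.04), Scn4b (-0.64), Th (-0.61) and Epha10 (-1.02), and positive for Sncg (0.76), Syt5 (1.33), Lrrc52 (1.79) and Crabp1 (1.04).

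Stress and regulatory genes gave 1.53 for Cebpb, 0.62 for Vldlr, 0.83 for Hspa2, 1.00 for Nr1d1, 1.22 for Bcl2l14 and 1.90 for Bmp8a, and -1.87 for Fgf21 and -1.08 for Chac1. Blood, matrix, bone, vessel and lipid genes gave 2.85 for Hba-a2, 1.46 for C1s1, 0.80 for Cp, 0.64 for Timp2, 1.32 for Ibsp, 0.82 for Emcn, 1.03 for Apod, 1.26 for Lpl and 0.71 for Cox7a1. Muscle and pigment genes gave -3.41 for Myl1, -3.02 for Ryr1, 0.59 for Pygm and -1.72 for Pmel, and the differences for Zp1 and Ripor3 were -2.72 and 1.81.

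Genes with near-identical copies had large differences that rest on Clrn1-/- or Wild-type levels far from the other genotypes, namely Rps3a3 (-1.87), Rpl29 (3.06), Ifi202b (-6.42), Ifi213 (3.76), Ifi206 (2.07) and Mndal (4.65). The 4 Ifi200 values come from genes with libraries at or near 0, where the fitted size depends on the prior count. Clrn2 itself gave 1.38, since it was lower in Clrn1-/- than in Wild-type (-1.57) and did not pass the test between the double knockout and Clrn2-/- (-0.18).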

How the results depend on the processing

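Without a minimum fold, a criterion that admits more genes by construction, 2743 genes were higher and 2515 lower, 3311 differed between the Clrn1 effects and 1728 were called in both of them in the same direction. Under limma-voom, DESeq2, other size factors, other filters on low counts, protein-coding, antisense and lincRNA genes only, unstranded counts or only the groups compared, these counts stayed within 1.5 times their values (DESeq2 536 higher and 211 lower, limma-voom 683 and 247, no filter 710 and 363). Leaving out 1 library at a time gave 544 to 707 higher, 224 to 270 lower, 905 to 1155 that differed between the effects and 267 to 323 shared. With only the 2 genotypes fitted, the difference of effects could not be had.

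With the replicate number as a block, 684 were higher, 253 lower, 1034 differed and 306 were shared. The numbers name samples only: deviations of same-numbered libraries from their group means correlated at -0.18, -0.11 and -0.02 over 12453 genes, other pairings at -0.23 to 0.29.

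Of 1616 values of named genes under alternatives other than a library left out, 1555 kept their direction and side of the threshold, 45 lost and 16 gained the call and 0 reversed; DESeq2 gave 8 further values no adjusted p. Of 127 named called genes 78 kept their call without any 1 library. Many calls lie near 1.5-fold. Of 1972 counts of called list members under alternatives, with libraries left out included, 1674 stayed within 1.5 times their value. Genes under 1 CPM, 156 of the 699 and 82 of the 273 called, are limited by depth.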

Other observations

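Genes that set and maintain the epithelial state were among those over-expressed, in a list made after the values were seen. Of 24 measured transcription factors, splicing factors, proteases and protease inhibitors of epithelia, 16 were called higher and 0 lower, their median log2 fold change being 0.67. Without the first double knockout library Ehf lost its call (0.46, adjusted p = 0.172 by edgeR) and Ovol1 gained one (1.39). Esrp1, an epithelial splicing factor, was at 22.4, 18.3 and 24.9 CPM in the Clrn2-/- libraries and 45.8, 51.8 and 45.1 CPM in the double knockout, and its libraries did not overlap between genotypes. Grhl2, a transcription factor of epithelial barriers, had a log2 fold change of 0.71, Spint2, an inhibitor of membrane-anchored serine proteases, 0.71, and the protease gene Prss8 0.68. Klf5 (-0.09) and Trp63 (0.41) were not called.

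Receptors for extracellular ATP, which supporting cells release, also moved. Of 16 purinergic genes listed after their values were seen, 3 were called higher and 1 lower. P2rx2, an ATP-gated channel of hair cells and supporting cells, was at 126, 107 and 137 CPM in the Clrn2-/- libraries and 257, 282 and 257 CPM in the double knockout (log2 fold change 1.10). P2ry1 and P2ry13 were the other increases, and both lie within 10 Mb of Clrn1. P2rx5 was lower (-0.68, adjusted p = 0.0498 by edgeR).

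Choroid plexus genes, listed after Ttr had been seen, were called higher in 8 of 20 cases, their median log2 fold change being 0.65. Without the first double knockout library 3 were higher (Tmem72, Aqp1 and Ecrg4) and 1 lower (Kl), and the median was 0.31.

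Other abundant or large changes outside every list were likewise picked after their values were seen. The muscle genes Trim54 (-1.33), Myom3 (-0.95) and Trdn (-0.85) fell, and Fbxo2 (0.67), a ubiquitin ligase subunit, rose from 1322 to 2109 CPM. Picked by value, they say nothing of muscle genes as a set, and 8 of the 27 listed muscle markers had a positive log2 fold change.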
